A study of Homo sapiens and Mus musculus with 74 samples.

Results

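Translation efficiency (TE) was compared between the kidneys of wild-type (WT) and Rpl41 knockout (KO) mice in 12 of the 74 samples of the study: 3 Ribo-seq libraries and as many RNA-seq libraries per genotype. Ribo-seq sequences the stretches of mRNA that ribosomes protect from RNase I, called ribosome-protected footprints (RPFs), whereas RNA-seq here sequences poly(A)-selected mRNA. The KO animals were Rpl41-/- mice in which CRISPR–Cas9 had removed the whole coding sequence in every cell, on a C57BL/6J background, and both genotypes were males of 10 weeks. The kidneys were lysed as whole organs, so each library mixes all renal cell types, and in such bulk samples fewer cells of a type cannot be told apart from less RNA per cell. The question was which gene classes had raised or lowered TE without Rpl41, and whether RNA or footprints moved. The measure came from a count model of both assays and is the log2 fold change of footprints minus that of RNA, KO over WT. Each gene was represented by the transcript that encodes its longest annotated protein.

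RPL41 is a very small and highly basic ribosomal protein, named for the large subunit but now assigned to the small one, and lies where both subunits meet. The TE of a gene rises when more ribosomes sit on each of its mRNAs, which can follow from more frequent initiation or from slower elongation, so a higher TE does not by itself mean more protein. The kidney reclaims filtered protein and salt with very large endocytic receptors and many transporters, surrounds its tubules and capillaries with basement membrane, and carries a dense set of mitochondria.

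Rpl41 itself (ENSMUSG00000093674, chr10:128548114-128549305 on the minus strand of GRCm38) had 85, 41 and 50 footprint counts in the 3 WT libraries and 0, 1 and 2 in the 3 KO libraries. Its RNA-seq counts were 5721, 7502 and 3695 in WT and 3, 3 and 8 in KO. The labels of all 12 libraries therefore fit the deletion, and a ratio of footprints to RNA in KO has no meaning for this gene. Kidney identity was as labelled: Slc34a1, the phosphate transporter of the proximal tubule, was at 5366 to 6569.9 CPM (counts scaled to a common library total) in every RNA-seq library, and all 49 proximal tubule transporter genes listed passed the filter on low counts.

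Of 22484 genes with a coding transcript, 12614 passed that filter in both assays. Summed over 1 transcript per gene, the Ribo-seq libraries held 7115695, 4089037 and 3711826 counts in WT and 3095208, 11843039 and 10990672 in KO, and the RNA-seq libraries 16051295 to 20425708. Pearson's r of log2 CPM across genes was 0.975 to 0.993 between Ribo-seq libraries of the same genotype and 0.964 to 0.982 between RNA-seq libraries of the same genotype. Between WT and KO RNA-seq libraries it reached down to 0.932. KO RNA-seq libraries 2 and 3 stood apart. In genes where a shorter annotated transcript ends upstream of the longer one, the median share of the longer transcript's reads that also lay on the shorter was 10.7% and 12.5% in these libraries, against 19.7% in KO library 1 and 21.1%, 17.1% and 28.8% in WT (4221 genes). They also had 1.76% and 1.67% of counts on mitochondrial rRNA, against 0.436% to 0.962% in the other 4, and fewer genes with a count, 15362 and 15519 against 15956 to 16151. The same read share in Ribo-seq was 65.9% to 67.2% in all 6 libraries (2209 genes). RNA-seq reads of KO libraries 2 and 3 thus lay closer to the 3′ ends of mRNAs, and TE changes of genes and medians of lists that moved by over 1.5 times without these libraries are given both ways.

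**Figure D1:**
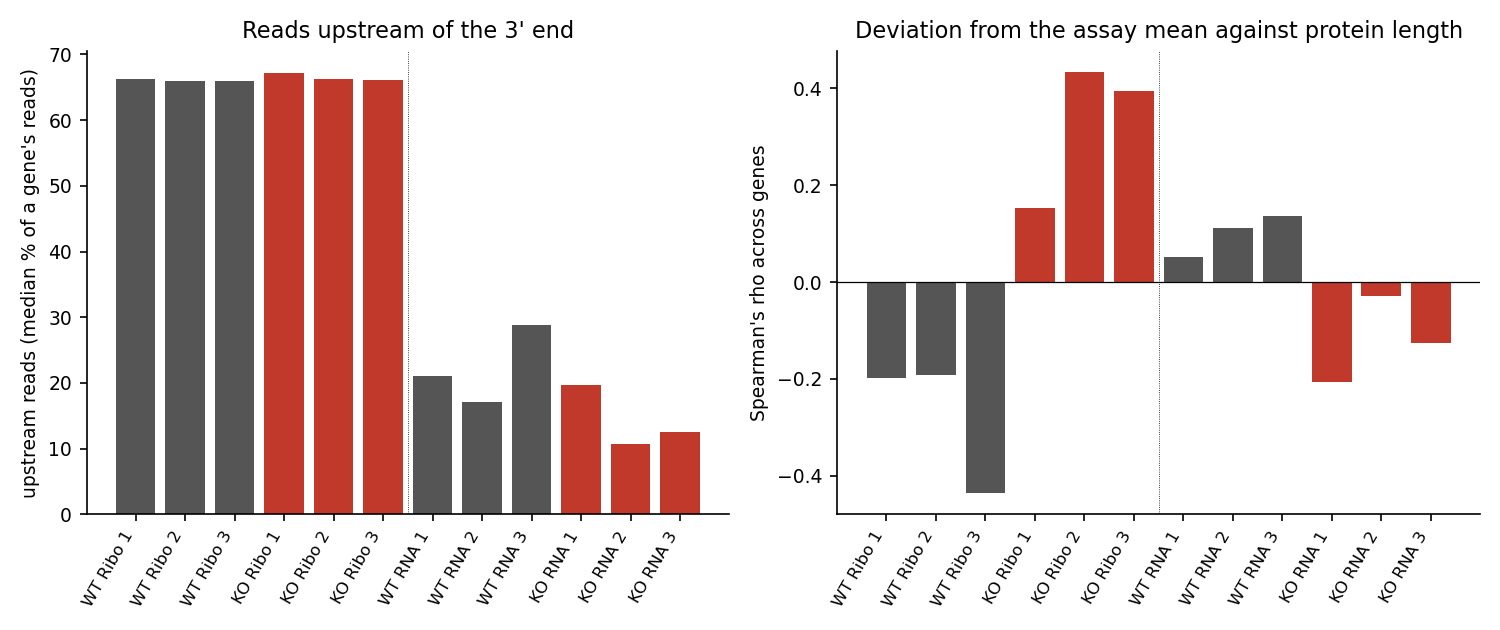
Left, median share of a gene's reads (%, y axis) that lie upstream of its 3′ end in each of the 12 libraries (x axis; grey WT, red KO; Ribo-seq left of the dotted line, RNA-seq right of it). Right, Spearman's rank correlation across 12614 genes between protein length and a library's log2 deviation from the mean of its assay. KO RNA-seq libraries 2 and 3 are the lowest on the left, at 10.7% and 12.5%; on the right all 3 KO Ribo-seq libraries are above 0 and all 3 WT Ribo-seq libraries below.

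TE changed in both directions in about equal numbers of genes. With the quasi-likelihood test of edgeR and p-values adjusted by Benjamini-Hochberg, 536 of 12614 genes had an adjusted p under 0.05, which is 4.25% and is what "called" means below. TE was higher in KO in 277 of them (2.2% of all tested) and lower in 259 (2.05%). Scaling by library totals in place of TMM factors gave 109 higher and 243 lower. At an unadjusted p under 0.05 there were 1512 higher (12%) and 1526 lower (12.1%). The KO libraries lay beyond the WT libraries whichever Ribo-seq library was set against whichever RNA-seq library in 795 genes higher in KO (6.3%) and 841 lower (6.67%). Among the 536 called genes, footprint and RNA changes had opposite signs in 519, or 96.8%. Because the TE change is the difference of both, choosing genes by it favours opposite signs by construction, and nothing further is read from this share.

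The number of calls depended on single libraries. The lowest adjusted p was 0.0255, so the calls lay close to the threshold. Leaving out 1 of the 12 libraries at a time gave between 0 and 2170 calls, with 0 in 5 of the 12 fits (without WT Ribo-seq libraries 2 or 3, KO Ribo-seq libraries 2 or 3, or KO RNA-seq library 2) and 2170 without KO RNA-seq library 1. At most 5 calls remained in 8 of the 12 fits. There were 3 without WT RNA-seq library 1, 2 without WT RNA-seq library 3 and 2 without KO RNA-seq library 3. Without KO RNA-seq libraries 2 and 3, where the remaining KO RNA-seq library is assumed to vary like the other groups, edgeR called 0 genes at an adjusted p under 0.05 and 1830 at an unadjusted p under 0.05. Single genes are therefore described below with their values in each library, and classes by counts and medians.

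**Figure D2:**
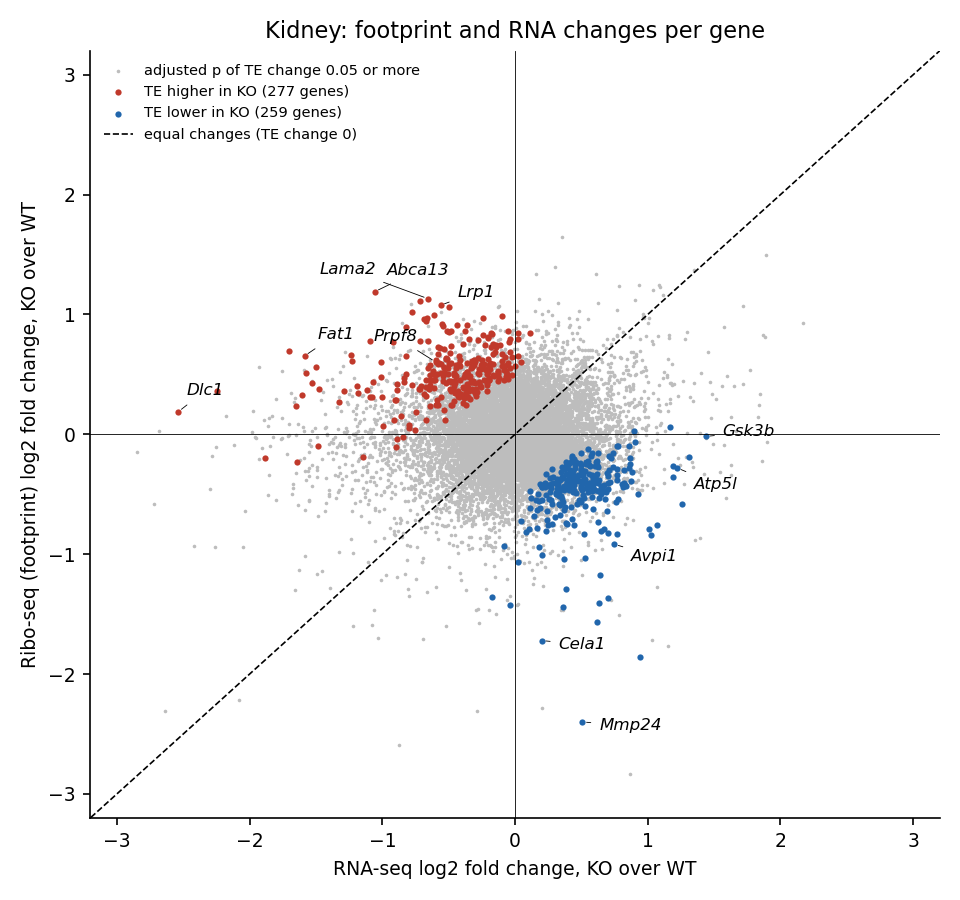
RNA-seq log2 fold change (x axis) against Ribo-seq log2 fold change (y axis), KO over WT, for the genes tested other than Rpl41; 2 genes lie outside the axes. Red points are the 277 genes with higher TE and blue points the 259 with lower TE, and they lie on either side of the dashed line of equal change, as the choice by TE requires.

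Both sides of the ratio differed in the called genes. Choosing genes by the difference of both sides favours this, so the shares below are a description. Of the 277 genes with higher TE, the footprint change was the larger part in 168 (60.6%, against 46.8% of all genes tested). Both parts made up at least 33.3% of the TE change in 151 (54.5%, against 21.7% of all genes tested). In these genes the median TE change was 0.91 on the log2 scale, with a median footprint change of 0.50 and a median RNA change of -0.45. Of the 259 genes with lower TE, footprints were the larger part in 114 (44%), near the share of all genes. Both parts reached 33.3% in 168 (64.9%). Their median TE change was -0.89, with a footprint median of -0.42 and an RNA median of 0.47.

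In the main test footprints carried calls of their own and RNA did not. In the Ribo-seq libraries alone, 846 genes were higher in KO (6.71%) and 520 lower (4.12%), among them 195 of the 277 genes with raised TE and 131 of the 259 with lowered TE. RNA-seq alone gave 1 called gene (0.00793%), Rpl41, although 2356 genes had an unadjusted p under 0.05. This contrast depended on the test and the libraries: RNA had 346 calls with DESeq2, 232 with the likelihood ratio test, 2782 with limma voom and sample quality weights, and 1551 without KO RNA-seq library 1. Footprints had 12 calls without KO Ribo-seq library 2 and 6 without KO Ribo-seq library 3. WT and KO libraries did not overlap in 4144 genes in Ribo-seq (32.9%) and in 2687 genes in RNA-seq (21.3%). KO RNA-seq library 1, which did not share the 3′ shift, lay below all 3 WT libraries in 205 of the 277 genes with raised TE (74%, against 21.3% of all genes). It lay above all 3 in 208 of the 259 with lowered TE (80.3%, against 21.7% of all genes). This library entered the test that chose these genes, so the shares are a description. Its median RNA difference from WT was -0.27 in the raised and 0.28 in the lowered genes, against -0.52 and 0.57 in KO libraries 2 and 3.

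The balance between both sides depended on the RNA-seq libraries. Over the 3038 genes with an unadjusted p under 0.05 for TE, footprints were the larger part in 47.2%, near the 46.8% of all genes tested. For the fits with libraries left out that follow, the share over all genes was not computed. Without KO RNA-seq libraries 2 and 3 this share was 69.6% of the genes then under 0.05, and without KO RNA-seq library 1 it was 28.9%.

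Genes with raised TE tended to encode longer proteins, and those with lowered TE shorter ones. Proteins of called genes with raised TE had a median of 1200 amino acids (aa) and those with lowered TE a median of 152, against 468 for all genes tested. Ordered by protein length and divided into 10 bins of like size, the bin of the shortest proteins (18 to 178 aa) had a median TE change of -0.47, with 1 gene called higher and 155 lower. The bin of the longest proteins (1174 to 35213 aa) had a median of 0.35, with 140 called higher and 2 lower. The median rose at each step between them, from -0.23 in the next shortest to 0.19 in the next longest. Spearman's rank correlation of TE change and protein length was 0.396 across 12614 genes, which share libraries and are not independent replicates.

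Most of this gradient was on the footprint side. The rank correlation with protein length was 0.453 for the footprint change and -0.159 for the RNA change. Among the longest proteins the median footprint change was 0.26 and the median RNA change -0.10, and among the shortest they were -0.26 and 0.19. Library by library, the rank correlation of a Ribo-seq library's deviation from the assay mean with protein length was -0.199, -0.191 and -0.436 in WT and 0.152, 0.434 and 0.395 in KO. All 3 KO libraries were above all 3 WT libraries. In RNA-seq it was 0.0514, 0.111 and 0.136 in WT and -0.206, -0.0292 and -0.125 in KO, again without overlap and with KO library 1 the lowest. The rank correlation of TE change was 0.477 without KO RNA-seq libraries 2 and 3 and 0.327 to 0.442 with any 1 library left out. That of the footprint change was 0.36 to 0.484 with any 1 library left out. KO Ribo-seq libraries 2 and 3, with the highest values, were also the deepest, at 11843039 and 10990672 counts against 3095208 to 7115695. They had 0.208% and 0.185% of counts on mitochondrial rRNA, against 0.357% to 0.538% in the other Ribo-seq libraries. Whether depth or library make-up bears on the footprint gradient was not tested.

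Other features of the transcript followed TE less closely. The rank correlation of the TE change was 0.314 with transcript length, 0.101 with 3′ UTR length, 0.0222 with 5′ UTR length, -0.141 with the GC content of the coding sequence and -0.133 with mean RNA level. When genes were split into 3 classes of coding GC content, the median TE change from the shortest to the longest of 5 length bins went from -0.27 to 0.32 at low GC, from -0.31 to 0.32 at middle GC and from -0.43 to 0.18 at high GC. Removing each library's median deviation by transcript length left a rank correlation of 0.15 with protein length and 2 called genes. Such a correction also takes out whatever part of a change follows protein length, because long proteins have long transcripts.

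**Figure D3:**
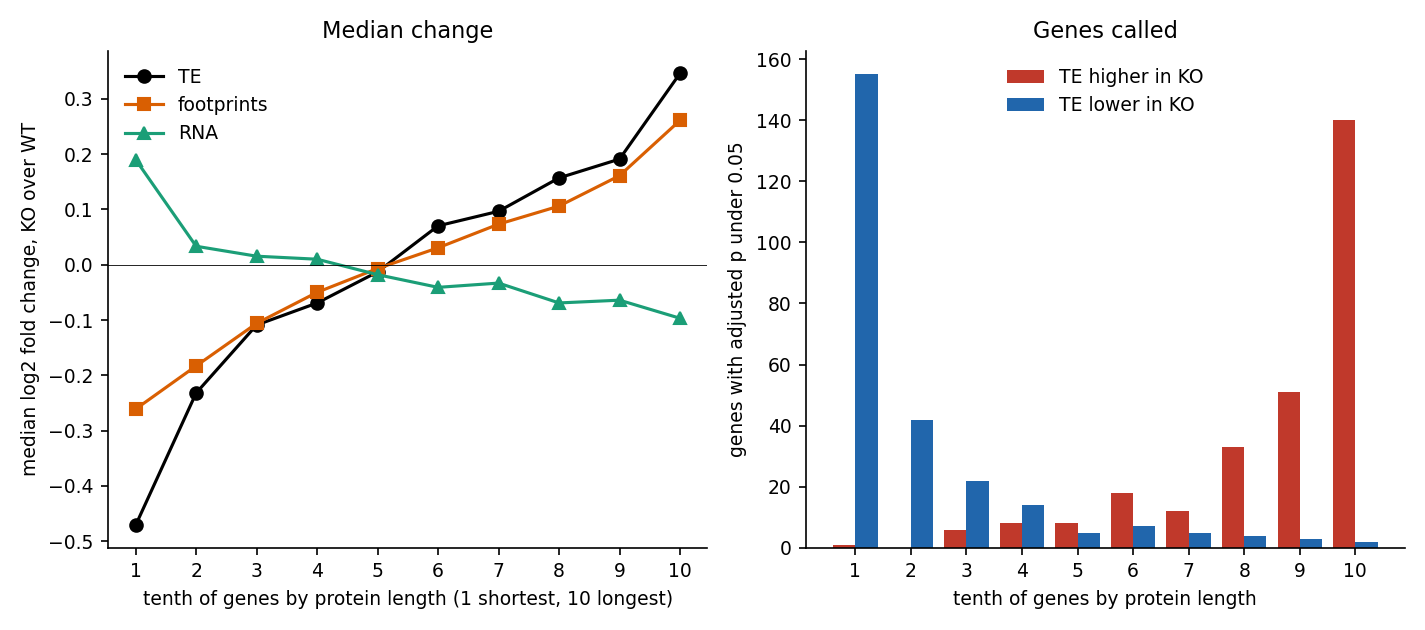
Left, median log2 fold change, KO over WT, of TE (black circles), footprints (orange squares) and RNA (green triangles) in 10 bins of the 12614 genes by protein length. Right, number of genes per bin with higher (red) and lower (blue) TE at an adjusted p under 0.05. TE climbs from -0.47 in the shortest to 0.35 in the longest bin, footprints account for most of the slope at the long end, and the calls change from 155 lower to 140 higher.

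Genes of the extracellular matrix had the largest median rise of the 31 gene lists examined. All 39 collagen and basement membrane genes of the list had a TE change above 0, with a median of 0.94 against 0.00 for all genes tested, 16 were called higher and none lower, beside 2.2% and 2.05% of all genes. The footprint median was 0.60, with 20 called higher (all genes, 6.71%), and the RNA median was -0.36, or -0.27 from KO library 1 alone. These proteins are long (median 1798 aa), and as a description their median TE change exceeded that of the longest 5% of all proteins, 0.43. The list was chosen with earlier results known and does not hold every collagen. Of the tested collagens outside it, Col27a1 was called lower, with a TE change of -1.80, and Col7a1 (-1.43, adjusted p = 0.15), Col23a1 (-0.13), Col26a1 (-0.07) and Col5a3 (-0.05) were also below 0 but not called, all but Col27a1 picked after their values were seen.

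Lama2 (chr10:26980036-27619758, minus strand), which encodes the laminin alpha 2 chain, had footprint levels of 115, 83.3 and 60.5 CPM in WT and 149, 214 and 206 CPM in KO. Its RNA levels were 10.6, 15.0 and 17.9 CPM in WT and 10.5, 10.2 and 6.86 CPM in KO. All KO footprint levels were above WT and all KO RNA levels below, and TE rose by 1.79 (standard error 0.35, adjusted p = 0.0367). The matrix proteoglycan gene Vcan rose as far, by 1.79 (standard error 0.44, adjusted p = 0.0439), at low levels of 3.29 to 5.36 CPM in WT and 6.83 to 10.5 CPM in KO footprints. Fn1 (fibronectin) and Hspg2 (perlecan), named here after their values were seen, rose by 1.61 and 1.27. Col4a4, a chain of the collagen of the glomerular filter, had the smallest change of the list, 0.28 (adjusted p = 0.401), and 0.11 without KO RNA-seq libraries 2 and 3. Thbs1, for the matrix glycoprotein thrombospondin 1, is not in the list and was named for its large TE rise. It had footprints of 120.2, 121 and 84.9 CPM in WT and 181, 286 and 236 CPM in KO. Its TE rose by 1.82 (standard error 0.32, adjusted p = 0.0305), of which footprints made up 1.11.

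Among 38 giant cytoskeletal and cell junction proteins (median 3016 aa), 36 had a TE change above 0, with a median of 0.78. In TE 15 were called higher and none lower, beside 2.2% and 2.05% of all genes. Footprints were called higher in 23 and lower in none, beside 6.71% and 4.12% of all genes. The footprint median was 0.56, while the RNA median was -0.18. Myh9 (non-muscle myosin heavy chain) had footprints of 579, 531 and 474 CPM in WT and 738, 886 and 809 CPM in KO. Its RNA was at 164, 174 and 200.4 CPM in WT and 148, 147 and 139 CPM in KO. Neither assay overlapped between genotypes, and TE rose by 0.93 (standard error 0.17, adjusted p = 0.0305). Pkhd1 (fibrocystin, the ciliary protein whose human counterpart is affected in recessive polycystic kidney disease) rose by 0.77 in TE and 0.80 in footprints, with an RNA change of 0.02, so footprints alone moved. Myh9 and Pkhd1 were also picked after their values were seen. Sptbn1, the spectrin with the most RNA of the list, had a TE change of 0.65 with an adjusted p of 0.0796 and a footprint rise of 0.47.

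Giant ubiquitin ligases and trafficking proteins (32 genes, median 3768 aa) moved on the footprint side. The median footprint change was 0.53 and the median RNA change -0.05, or -0.16 from KO library 1. In footprints 23 genes were called higher and none lower, beside 6.71% and 4.12% of all genes. TE had a median of 0.64, with 31 genes above 0, 9 called higher and none lower, beside 2.2% and 2.05% of all genes. Vps13c, for a lipid transfer protein at organelle contacts, had footprints of 50.9, 51.3 and 54.2 CPM in WT and 77.7, 86.7 and 81.9 CPM in KO, with RNA at 7.62, 5.15 and 10.1 CPM in WT and 3.59, 3.96 and 2.06 CPM in KO. Its TE rose by 1.89 (standard error 0.31, adjusted p = 0.0305), with a footprint rise of 0.66 and an RNA change of -1.24, so this gene ran against its class in the side that moved more. Kmt2c was the single member below 0, at -0.46 (adjusted p = 0.444), but the transcript used ends upstream of the gene's 3′ end, and on a transcript that reaches it the change was 0.09. It was 0.42 without KO RNA-seq libraries 2 and 3.

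**Figure D4:**
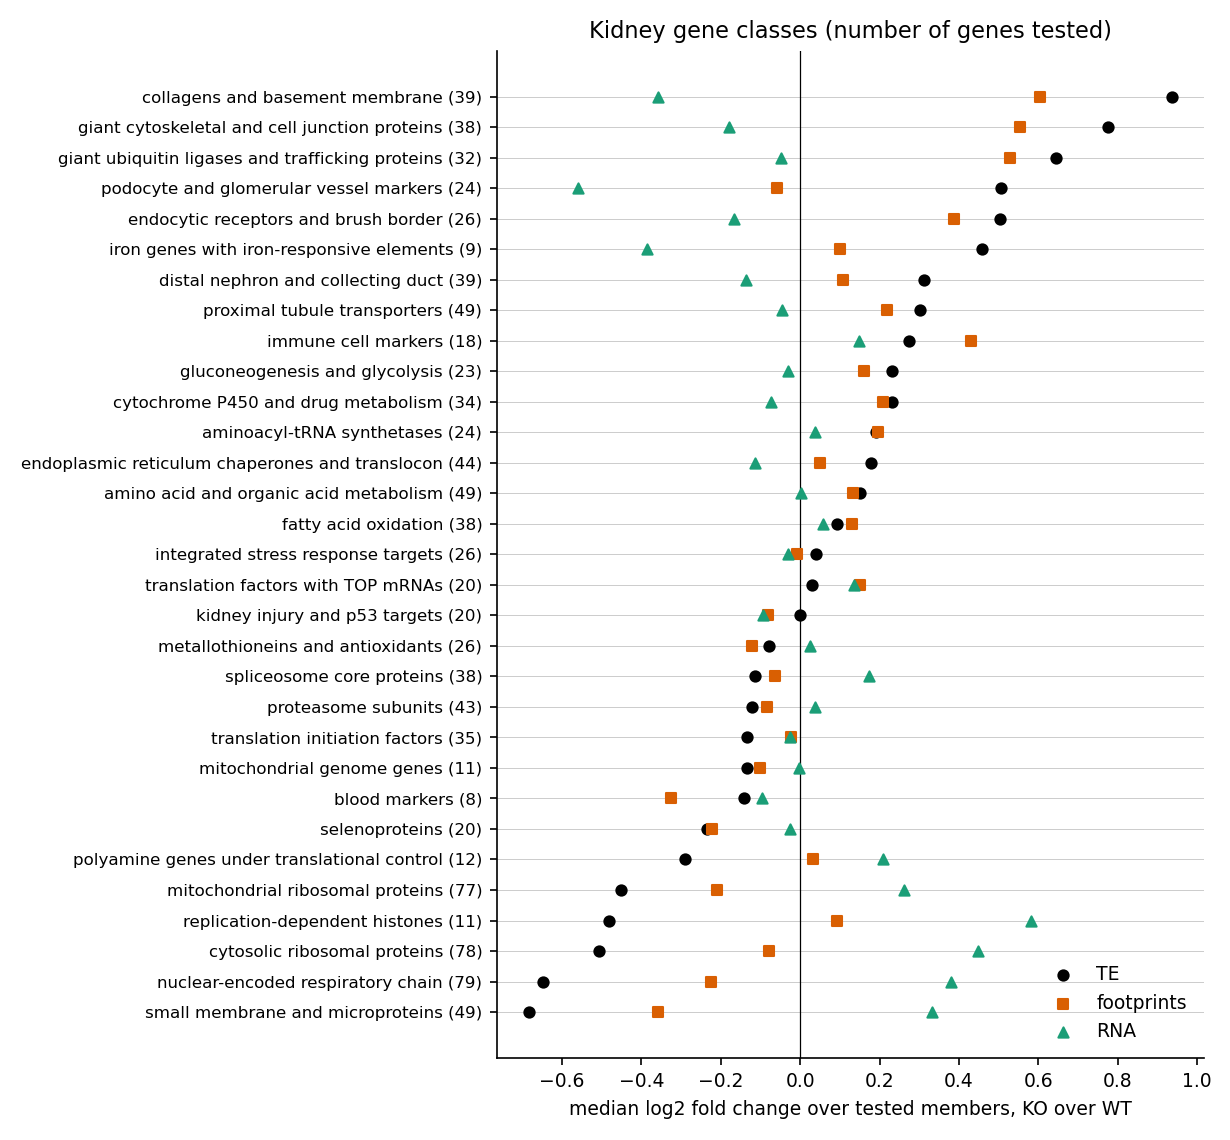
Median log2 fold change, KO over WT, of TE (black circles), footprints (orange squares) and RNA (green triangles) over the tested members of 31 gene lists, ordered by TE, with the number tested in brackets. In the 3 top lists footprints lie far to the right; in the podocyte and glomerular vessel list RNA lies far to the left and footprints near 0; in the 5 bottom lists RNA lies to the right of 0.

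Genes of endocytosis and the brush border of the proximal tubule had raised footprints, with 10 of 26 called higher and none lower, beside 6.71% and 4.12% of all genes. Of these genes 25 had a TE change above 0, with a median of 0.50, a footprint median of 0.39 and an RNA median of -0.17. The 5 genes called in TE, all higher (2.2% of all genes), encode Lrp2 (megalin) and Cubn (cubilin), which retrieve filtered proteins, their relative Lrp1, and the surface peptidases Mme and Dpp4. Lrp2 (chr2:69424340-69586065, minus strand) had footprints of 5273, 6081 and 5011 CPM in WT and 7915, 8599 and 8534 CPM in KO. RNA of Lrp2 was at 1804, 1678 and 1691 CPM in WT and 1408, 1457 and 1316 CPM in KO. Every KO library lay beyond every WT library in both assays, and TE rose by 0.92 (standard error 0.18, adjusted p = 0.0367), and the change was 0.91 without KO RNA-seq libraries 2 and 3. The footprint change alone was 0.61 (adjusted p = 0.0512). Cubn rose by 1.08, Mme by 0.77 and Dpp4 by 0.72. Lrp1 rose by 1.64, but its footprints varied between libraries, at 302, 200.3 and 129.8 CPM in WT and 318, 541 and 479 CPM in KO.

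Proximal tubule transporters moved less. The median TE change of 49 genes was 0.30, with a footprint median of 0.22 and an RNA median of -0.04, 10 genes called higher in footprints (6.71% of all genes) and 1 in TE (2.2%). The called gene was Abcc2, an efflux pump for organic anions, with a TE rise of 0.81 (standard error 0.20, adjusted p = 0.0443). Slc34a1, with the most RNA of the list, had a TE change of -0.01 (adjusted p = 0.988), and 0.07 without KO RNA-seq libraries 2 and 3. Slc9a3, the apical sodium-proton exchanger, was highest at 1.49 (adjusted p = 0.10), with a footprint rise of 0.62. Its transcript ends 2279 bases upstream of the 3′ end, and the TE change was 0.69 on one that reaches it and 0.71 without KO RNA-seq libraries 2 and 3. Slc4a4, the basolateral bicarbonate transporter, was lowest at -1.24 (adjusted p = 0.152) although its footprints rose by 0.53, from 1082 to 1189 CPM in WT to 1499 to 1802 CPM in KO. Its RNA in KO was 48.2, 205 and 161 CPM, so libraries 2 and 3 set that value, and the TE change was 0.28 without them, 0.71 on a transcript that reaches the 3′ end and 0.01 with counts summed over the gene.

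In the distal nephron and collecting duct list, 4 of 39 genes were called, all higher (2.2% of all genes), and the median TE change was 0.31. The TE change was above 0 in 26 genes and below 0 in 13. Footprints were called higher in 5 and lower in 3, beside 6.71% and 4.12% of all genes. Slc12a1 (chr2:125152505-125230002, plus strand), the salt transporter of the thick ascending limb, had footprints of 940.2, 969 and 863 CPM in WT and 1596, 1682 and 1589.8 CPM in KO. RNA of Slc12a1 was at 1081, 858 and 877 CPM in WT and 819, 851 and 774 CPM in KO. The rise in TE of 1.02 (standard error 0.17, adjusted p = 0.0305) was thus mostly a footprint rise of 0.81, and was 1.01 without KO RNA-seq libraries 2 and 3. Egf, the precursor of epidermal growth factor made in the same segments, rose by 1.72 in TE and 0.90 in footprints, with RNA at 516, 383 and 870.2 CPM in WT and 508, 223 and 268 CPM in KO. The lower Egf RNA therefore lay in KO libraries 2 and 3, and the TE change was 1.11 without them. For Casr (calcium-sensing receptor) and Slc8a1 (sodium-calcium exchanger) the RNA side was larger, with RNA changes of -1.09 and -1.12 and footprint changes of 0.31 and 0.37. The TE change of Slc8a1, 1.48 on a transcript that ends 15419 bases upstream of the 3′ end, was 0.28 on one that reaches it and 0.32 with counts summed over the gene. Umod, for the most abundant urinary protein, had a TE change of 0.86 with an adjusted p of 0.0664. Atp6v1g3 was the lowest of the list, with a TE change of -1.11 (adjusted p = 0.0757) and a footprint change of -0.66 (adjusted p = 0.0464).

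Podocyte and glomerular vessel markers showed the opposite split. Their median TE change was 0.51 over 24 genes, with 21 above 0, but the footprint median was -0.06 and the RNA median -0.56, or -0.49 from KO library 1 alone. Podxl, for the podocyte surface protein podocalyxin, had footprints of 174, 200.3 and 136 CPM in WT and 174, 159 and 159 CPM in KO. RNA of Podxl was at 199, 222 and 210.2 CPM in WT and 156, 127 and 115 CPM in KO. Footprints overlapped and RNA did not, and the TE change was 0.61 (adjusted p = 0.0942), and 0.37 without KO RNA-seq libraries 2 and 3. The 3 genes called were all higher (2.2% of all genes). They were Kdr, the endothelial VEGF receptor, at 0.98, Tjp1, a tight junction scaffold, at 1.16 and Plat, a plasminogen activator, at 1.03. Whether glomerular cells made up a smaller share of the RNA-seq samples was not tested.

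Genes with iron-responsive elements, whose mRNAs are bound by iron regulatory proteins, also differed on the RNA side, with a median TE change of 0.46 over 9 genes, 0.10 for footprints and -0.39 for RNA. Without KO RNA-seq libraries 2 and 3 this TE median was 0.17. Epas1, for a hypoxia-inducible factor, rose by 1.05 and Slc40a1, the iron exporter, by 1.22, whereas Fth1 (ferritin heavy chain) had a change of -0.25 (adjusted p = 0.579), and 0.03 without these libraries.

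At the other end of the scale, small proteins of the mitochondrion had lowered TE, as short proteins did in general. Of 79 nuclear-encoded respiratory chain genes (median 141 aa), 72 had a TE change below 0, 18 were called lower and none higher, beside 2.05% and 2.2% of all genes, and the median was -0.65. The footprint median was -0.22, with 8 genes called lower and 1 higher, beside 4.12% and 6.71%, and the RNA median was 0.38, or 0.22 from KO library 1 alone. RNA was thus the larger side, and without KO RNA-seq libraries 2 and 3 the TE median was -0.47. The transcript length correction left a TE median of -0.24. For comparison, the bin of the shortest proteins, 18 to 178 aa, had a median of -0.47 and the shortest 5% of all proteins -0.53.

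Ndufa6, a subunit of complex I named after its values were seen, had footprints of 215, 243 and 293 CPM in WT and 188, 162 and 189 CPM in KO. Its RNA was at 278, 326 and 218 CPM in WT and 325, 443 and 435 CPM in KO. Footprint levels did not overlap between genotypes, whereas RNA levels did, and TE fell by 1.03 (standard error 0.24, adjusted p = 0.0406). Atp5l, a small subunit of ATP synthase, fell by 1.50 (standard error 0.36, adjusted p = 0.0414), with a footprint change of -0.28 and an RNA change of 1.22. Its RNA was at 4.72 to 7.21 CPM in WT and 8.03, 20.4 and 15.2 CPM in KO. Ndufb4 of complex I fell by 1.45, with an RNA change of 1.19. Much of both lay in the same libraries, since the TE change without KO RNA-seq libraries 2 and 3 was -0.65 in Atp5l and -0.67 in Ndufb4. Long subunits did not follow: Atp5b, the catalytic subunit of ATP synthase with 529 aa, had a TE change of 0.03 (adjusted p = 0.947), or 0.05 without these libraries, and Ndufs1 of complex I, the longest of the list with 727 aa, one of 0.49 (adjusted p = 0.0863) with a footprint rise of 0.40. The 11 genes tested of the mitochondrial genome had a median of -0.13 and none was called.

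Mitochondrial ribosomal proteins had a median TE change of -0.45 over 77 genes, or -0.20 after the transcript length correction, with 70 below 0. Their median length was 196 aa, and the bin of 178 to 253 aa had a median TE change of -0.23. In TE 17 were called lower and none higher, beside 2.05% and 2.2% of all genes. Both sides moved by like amounts, with a footprint median of -0.21 and an RNA median of 0.26, or 0.20 from KO library 1. For Mrpl12 (chr11:120484613-120489065, plus strand), of the large mitochondrial subunit, footprints were at 123, 125 and 146 CPM in WT and 104, 95.6 and 106 CPM in KO. RNA of Mrpl12 was at 233, 238 and 184 CPM in WT and 259, 318 and 311 CPM in KO. Neither assay overlapped, and TE fell by 0.81 (standard error 0.18, adjusted p = 0.04). Mrpl52, with 121 aa the lowest of the list, fell by 1.06.

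The list of small membrane proteins and microproteins (49 genes, median 89 aa) had the lowest median of all, -0.68. In this list 46 genes were below 0, 18 called lower and none higher, beside 2.05% and 2.2% of all genes. The shortest 5% of all proteins had a median of -0.53, and the transcript length correction left -0.36 for the list. Footprints had a median of -0.36, with 14 called lower and none higher, beside 4.12% and 6.71%, and RNA a median of 0.33. In Tomm5, an import receptor subunit of the outer mitochondrial membrane picked after its values were seen, only footprints moved. They were at 31.5, 34.2 and 37.5 CPM in WT and 20.9, 20.5 and 20.7 CPM in KO, with an RNA change of 0.04 and a fall in TE of 0.77 (standard error 0.18, adjusted p = 0.0412). In Smim22, the lowest of the list with a fall of 1.50, RNA made up nearly the whole change, which was -0.76 without KO RNA-seq libraries 2 and 3. Fxyd2, the gamma subunit of the sodium pump of the tubule, had the most RNA and a change of -0.73 (adjusted p = 0.0767).

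Cytosolic ribosomal proteins had a lower TE through RNA, and much of it lay in 2 libraries. Of 78 genes, 70 had a TE change below 0, with a median of -0.51, a footprint median of -0.08 and an RNA median of 0.45. After the transcript length correction the TE median was -0.07. KO RNA-seq library 1 alone gave an RNA median of 0.15 and KO libraries 2 and 3 gave 0.63, and without these 2 libraries the TE median was -0.20. Only Rpl38, with a fall of 1.14, and Rplp2, an acidic protein of the ribosomal stalk, with a fall of 0.82, were called. These 2 of 78 genes are near the 2.05% of all genes called lower. The change of Rpl38 was -0.53 without KO RNA-seq libraries 2 and 3. Rps29 was the lowest of the list at -1.47 (adjusted p = 0.073), and its RNA level was at 0.768 to 1.39 CPM in WT, with a TE change of -0.38 without these libraries. Rpl3 was the highest at 0.41 and Rpl4 had the most RNA, with a change of -0.12, and neither was called. Without these libraries they were at 0.18 and 0.02. Processed pseudogenes share sequence with these genes and multimapping reads were allowed, so their counts are uncertain. Of 47 listed histone genes of the replication-dependent clusters, 11 passed the filter. They also had a lower TE, with a median of -0.48, or -0.24 without these libraries, a footprint median of 0.09 and an RNA median of 0.58. Both called histone genes, Hist1h4h (fall of 1.53) and Hist1h4i (fall of 0.95), belong to the near-identical H4 family, and replication-dependent histone mRNAs lack a poly(A) tail, so their RNA values are uncertain.

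One complex held members at both ends. In the spliceosome core list of 38 genes, the scaffold Prpf8 (2335 aa) and the helicase Snrnp200 (2136 aa) were called higher, by 1.20 and 0.56. Of all genes 2.2% were called higher and 2.05% lower. The Sm ring proteins Snrpf, Snrpe and Snrpg (76 to 92 aa) were called lower, by 1.31, 1.11 and 0.86. Prpf8 (chr11:75486816-75509449, plus strand) had footprints of 413, 402 and 395 CPM in WT and 562, 643 and 632 CPM in KO. Its RNA was at 90.0, 88.7 and 116 CPM in WT and 67.3, 62.0 and 65.7 CPM in KO. Both assays separated the genotypes, and the TE rise of 1.20 (standard error 0.17, adjusted p = 0.0305) was 1.15 without KO RNA-seq libraries 2 and 3. The footprints of Snrpf were at 27.6, 23.1 and 30.1 CPM in WT and 20.5, 15.9 and 17.1 CPM in KO, a fall of 0.64. Without KO RNA-seq libraries 2 and 3 the TE change of Snrpe was -0.62.

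Genes of the translation machinery outside the ribosome moved little in TE. Initiation factors had a median of -0.13 over 35 genes (-0.05 without KO RNA-seq libraries 2 and 3) and 2 calls, both higher (2.2% of all genes). The calls were Eif3a, the largest subunit of eIF3, by 0.60 and Eif2a by 0.64. The aminoacyl-tRNA synthetases had a median of 0.19 over 24 genes, with 8 called higher in footprints and none lower (6.71% and 4.12% of all genes). Iars, which charges isoleucine tRNA, was the only gene called in TE, by 0.64. Translation factors with terminal oligopyrimidine (TOP) mRNAs had a median of 0.03, or 0.13 without these libraries, and Eef1a1, the elongation factor with the most RNA, one of 0.46 (adjusted p = 0.284). Targets of the integrated stress response had a median of 0.04 over 26 genes, or 0.13 without these libraries, and no call, proteasome subunits -0.12 over 43 genes and no call, and endoplasmic reticulum chaperones and translocon genes 0.18 over 44 genes. In this last list Pdia4, a disulfide isomerase, was called higher by 0.86 (2.2% of all genes). Srp19 and Srp9, both of the signal recognition particle, were called lower by 1.34 and 0.84 (2.05% of all genes).

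Metabolic classes were near the middle. Medians of TE change were 0.09 for fatty acid oxidation, where Hsd17b4 of the peroxisome was called higher by 0.67, 0.23 for gluconeogenesis and glycolysis, 0.15 for amino acid and organic acid metabolism and 0.23 for cytochrome P450 and drug metabolism genes, the last 3 with no call. Kap, the androgen-regulated proximal tubule gene with very high RNA, ranged in footprints from 2829 to 4807 CPM in WT and from 2491 to 6168 CPM in KO, and had a TE change of -0.44 (adjusted p = 0.565). Selenoproteins had a median of -0.23, with Gpx4, which reduces lipid peroxides, called lower by 0.84. Selenoh was the lowest of that list at -0.98 (adjusted p = 0.0662). Medians were -0.29 for polyamine genes, -0.08 for metallothioneins and antioxidants and 0.00 for kidney injury and p53 targets, with no call in these lists. Without KO RNA-seq libraries 2 and 3 the medians were 0.18 for fatty acid oxidation, -0.16 for polyamine genes, -0.13 for metallothioneins and antioxidants and 0.04 for injury and p53 targets, and the change of Gpx4 was -0.56.

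Immune cell markers were higher in footprints without a called TE change. Of the 29 genes listed, 18 passed the filter, which high levels in a single genotype can satisfy. Footprints were called higher in 9 of these 18 genes and lower in none (all genes, 6.71% and 4.12%). The footprint median was 0.43 and the RNA median 0.15. Igkc, the immunoglobulin kappa constant region, had footprints of 10.5, 16.1 and 12.0 CPM in WT and 28.4, 26.0 and 34.9 CPM in KO, and RNA of 7.30, 13.5 and 9.87 CPM in WT and 21.6, 15.4 and 21.6 CPM in KO. Both assays were higher in KO in every library, and the TE change was 0.30 (adjusted p = 0.612), and 0.16 without KO RNA-seq libraries 2 and 3. Footprints of the leukocyte antigen Ptprc rose by 0.79 and those of Cd74, the invariant chain, by 0.62. H2-Eb1, the highest of the list in TE, was at 1.10 (adjusted p = 0.0545), and 0.63 without these libraries. Fcer1g, the lowest, went the other way, with a TE change of -0.95 (adjusted p = 0.102) and a footprint change of -0.40. The TE change was above 0 in 15 genes of the list and below 0 in 3. Igkc and Ptprc were named after their values were seen. The TE median of the immune list, 0.28, was 0.16 without these libraries. Blood markers had a TE median of -0.14 over 8 genes, or -0.39 without these libraries, with no call. Whether the number of immune cells differed between the kidneys was not tested.

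The single genes furthest from 0 differed in which side moved. Mmp24 (chr2:155775342-155818366, plus strand), for a membrane-bound metalloproteinase, had the lowest adjusted p. Its footprints were at 7.50, 9.42 and 11.0 CPM in WT and 0.719, 1.80 and 1.91 CPM in KO, with RNA at 36.5, 43.3 and 26.7 CPM in WT and 39.6, 57.7 and 54.3 CPM in KO. The fall in TE of 2.92 (standard error 0.38, adjusted p = 0.0255) came from a footprint fall of 2.40, and the change was -2.57 without KO RNA-seq libraries 2 and 3. Cela1, a pancreatic-type elastase, had footprints of 109, 35.5 and 43.8 CPM in WT and 11.1, 21.8 and 22.1 CPM in KO. Its TE change was -1.93 (standard error 0.47, adjusted p = 0.0419), and -1.23 without WT Ribo-seq library 1, which was far above the other WT libraries.

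Avpi1, a gene induced by vasopressin, fell by 1.65 (standard error 0.30, adjusted p = 0.0305). Footprints of Avpi1 were at 34.4, 40.4 and 27.9 CPM in WT and 21.2, 17.6 and 17.2 CPM in KO, and RNA at 14.5, 9.73 and 12.9 CPM in WT and 16.4, 27.2 and 18.7 CPM in KO. Col27a1, a fibrillar collagen of 1845 aa, ran against its length with a fall of 1.80 (adjusted p = 0.0412). Its RNA was at 95.6, 122 and 129 CPM in WT and 132, 319 and 247 CPM in KO, and without libraries 2 and 3 the change was -0.98. Abca13, a lipid transporter of 5034 aa, rose by 2.25 (standard error 0.44, adjusted p = 0.0367), with footprints of 526, 569 and 403 CPM in WT and 809, 1348 and 1256 CPM in KO. Its RNA was at 58.6 CPM in KO library 1, within the WT range of 56.5 to 105 CPM, and at 24.4 and 28.4 CPM in KO libraries 2 and 3.

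Several of the largest changes hung on the transcript used. Dlc1, for a GTPase-activating protein, rose by 2.69 and Slc7a2, a cationic amino acid transporter, by 2.61, but the transcripts with their longest proteins end 2498 and 4582 bases upstream of the gene's 3′ end. On transcripts that reach the 3′ end the changes were 0.61 and 0.43. Fat1, an atypical cadherin of 4645 aa, rose by 2.23 on the transcript used, with footprints of 162, 162 and 121 CPM in WT and 206, 256 and 238 CPM in KO, and by 0.91 on one that reaches the 3′ end. Pecam1, the endothelial adhesion molecule, which was not called, went from 2.47 to 1.20, and Gsk3b, a serine/threonine kinase, from -1.45 to -0.35. Without KO RNA-seq libraries 2 and 3 the change was 1.38 in Pecam1 and -0.70 in Gsk3b. RNA of these transcripts was lowest or highest in KO libraries 2 and 3, as for Gsk3b with 3.62, 3.96 and 2.79 CPM in WT and 5.56, 12.5 and 10.2 CPM in KO. Of the 12614 genes, 10939 were measured on a transcript that ends at the 3′ end, and the rank correlation of TE change with protein length was 0.40 in these and 0.358 in the rest.

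**Figure D5:**
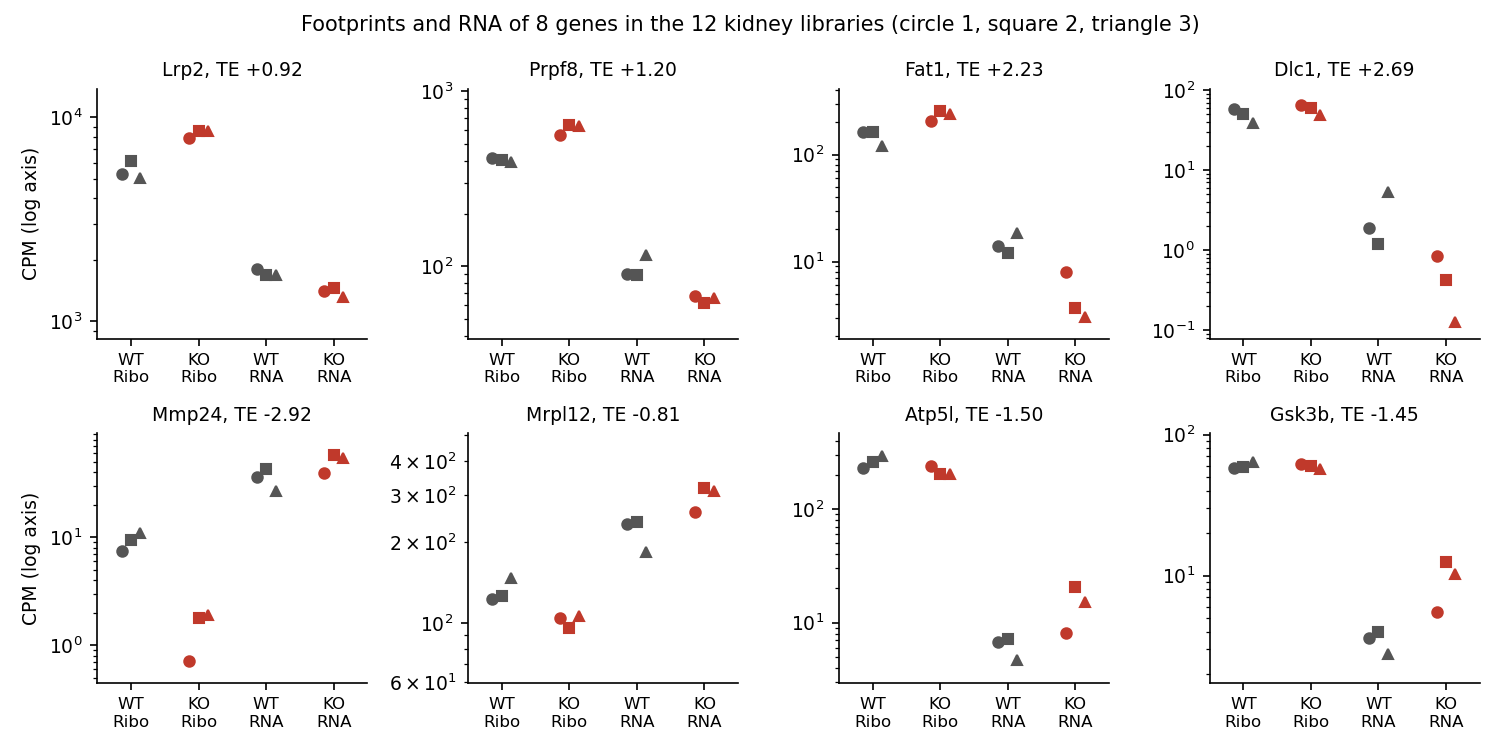
Level of 8 genes in CPM (y axis, log scale) in each of the 12 libraries, with WT grey and KO red, Ribo-seq left and RNA-seq right in each panel; circle, square and triangle are replicates 1, 2 and 3, and the panel title gives the log2 TE change. In Lrp2 and Prpf8 both assays separate, in Mmp24 footprints fall, and in Atp5l and Gsk3b RNA moves, most in KO libraries 2 and 3.

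Set against the brain of the same study, also 3 WT and 3 Rpl41 KO libraries per assay, single genes were not shown to differ in TE change by the main test. In a model of both tissues with the tissue by assay by genotype term, edgeR called 0 of 11586 genes (0%) at an adjusted p under 0.05, with 1016 at an unadjusted p under 0.05, and DESeq2 called 16. Brain alone had 0 genes called in TE, with 1067 at an unadjusted p under 0.05, so the signs that follow are a description. Of the 510 genes called in kidney and tested in both, 260 were raised and 250 lowered in kidney. Brain TE change was above 0 in 217 of the raised and below 0 in 232 of the lowered genes. Their medians in brain were 0.29 and -0.31, against -0.01 for all genes. Side by side and without a test of the lists, the median was 0.45 in brain and 0.96 in kidney for collagens and basement membrane, 0.51 and 0.65 for giant ubiquitin ligases and trafficking proteins, and -0.33 and -0.64 for the nuclear-encoded respiratory chain. Podocyte and glomerular vessel markers were at 0.07 in brain and 0.52 in kidney. Signs differed in other lists, among them immune cell markers, at -0.24 in brain and 0.43 in kidney, and replication-dependent histones, at 0.31 and -0.475. The distal nephron list was at -0.07 and 0.33, the endoplasmic reticulum list at -0.10 and 0.19 and polyamine genes at 0.10 and -0.28. All these medians cover only genes tested in both tissues. Mmp24 came closest to a difference, with -0.65 in brain and a kidney minus brain difference of -2.25 (standard error 0.39, adjusted p = 0.0525).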

How the data were processed

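Ribo-seq and RNA-seq of WT and Rpl41 KO kidney, with 3 libraries per genotype and assay, were analysed. The authors trimmed reads with cutadapt and the FASTX Toolkit, removed rRNA reads, aligned with STAR to GRCm38.p6 transcripts and mm10 with multimapping reads allowed, and deposited featureCounts read counts per transcript without normalization. Tool versions are not given in the sources used here. Isoforms share reads, so counts of 1 transcript include reads of others. The paper names a directional library kit for RNA-seq, but whether reads were counted by strand is not stated. Reads of overlapping genes may therefore be mixed.

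The transcript with the longest protein (GENCODE M21) was taken for each of 22484 coding genes, with 141374 of 142604 transcripts matched. Genes passing filterByExpr in each assay were scaled by TMM within each assay. CPM are counts of a library relative to its total over the tested genes, after TMM scaling. The TE, footprint and RNA changes were tested with edgeR's quasi-likelihood F-test and Benjamini-Hochberg adjustment over all 12614 genes, in place of the study's RiboDiff. The labels number replicates without naming animals, so p-values measure the spread between libraries. Standard errors are the size of the change over the square root of F. Scripts were tested on simulated counts.

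Gene lists (1114 genes, of which 1030 were tested) and members were chosen with earlier results of these data known. Named genes were Rpl41, up to 12 genes per direction with the greatest TE change at a mean of at least 5 CPM per assay with libraries apart under every pairing, the largest calls, and from each list the highest, the lowest and the most abundant in WT RNA, and not all were printed. Genes called in lists with 5 or fewer calls were added after their values were seen. Alternatives were other tests (DESeq2, likelihood ratio, limma voom with sample quality weights), scalings, filters and transcripts, counts summed per gene, replicate blocks and libraries left out. A length correction, transcripts ending at the 3′ end, another version of the quasi-likelihood method and a dispersion per assay were added after seeing the data. In the mouse file 6 disome-seq columns were not used, and the 28 columns of the human file, which carry titles of mouse samples, were not analysed here. R 4.3.3, edgeR 4.0.16, limma 3.58.1, DESeq2 1.42.0, Python 3.11.15, numpy 2.4.6, pandas 2.3.3 and matplotlib 3.10.9 were used.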

Additional observations from a re-analysis of the deposited data

How the results depend on the processing

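The count of 536 TE calls (277 higher, 259 lower) became 1183 with DESeq2, 1129 with the likelihood ratio test, 1121 with that test and a dispersion per assay, 2952 with limma voom and sample quality weights, 352 (109 higher, 243 lower) with library totals only, 274 with 1 filter over all 12 libraries, 193 with counts summed per gene and 2 after the transcript length correction. It was 0 without KO RNA-seq libraries 2 and 3, also on transcripts ending at the 3′ end and with counts summed per gene. With 1 library left out it ranged from 0 to 2170, and with both assays of a replicate left out it was 5, 223 and 0 in WT and 1779, 0 and 0 in KO. The 1366 footprint calls became 2278 with voom and these weights, 642 summed per gene and 905 after the length correction, and ranged from 6 (without KO Ribo-seq library 3) and 12 (without KO library 2) to 1485 with 1 library left out. The single RNA call became 346 with DESeq2, 232 with the likelihood ratio test, 2782 with voom and these weights and 0 with at least 10 counts in every library, and ranged from 1 to 1551 (without KO library 1). The share of genes with the larger part in footprints, 47.24%, ranged from 28.89% to 54.49% with 1 library left out, and was 69.56% without KO RNA-seq libraries 2 and 3, 70.56% when transcripts ended at the 3′ end as well and 68.04% with counts summed per gene as well. The difference from brain gave 0 calls, and 16 with DESeq2. The cause of these shifts was not tested. The median of 24 of the 31 lists kept its sign in all 23 settings run for the lists. The other 7, which lie near 0, were TOP factors, initiation factors, the mitochondrial genome, blood, the integrated stress response, the proteasome and kidney injury. Among the called genes in the text, Gsk3b alone changed sign under a setting, to 0.0541 on a transcript ending at the 3′ end without KO RNA-seq libraries 2 and 3. Genes that were not called changed sign in some of 38 settings, namely Slc4a4, Kmt2c, Fth1, Rpl4, Atp5b, Slc34a1, Kap and Col4a4. The depth of the Ribo-seq libraries, 3095208 to 11843039 counts, limits calls among genes with few footprints.

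Deviations of same-numbered Ribo-seq and RNA-seq libraries correlated at 0.14, 0.214 and 0.248 in WT and 0.105, 0.0776 and 0.135 in KO, and each Ribo-seq library correlated best with its own number. As 1 pair is under 0.1, this is a hint from the data and not the design. A replicate block within each assay left 1 TE call, 854 footprint calls and 2 RNA calls. A replicate block pairing Ribo-seq and RNA-seq gave 566 TE calls, of which 389 were among the 536. A replicate block in the model with brain gave 0 calls.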
